A study of Mus musculus with 37 samples.

Results

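Heat shock proteins and DnaJ proteins are the molecular chaperones of the cell, and 54 of their genes were measured here in mouse kidneys after ureteral obstruction. Members were the genes whose symbols place them in the Hsp90, Hsp70 (Hspa), small heat shock (Hspb), Hsp60 (Hspd), Hsp10 (Hspe) or Hsp110 (Hsph) families, or among DnaJ types A, B and C. A gene was kept when a probe had a detection p-value under 0.05 on at least 3 of the 37 arrays, which 54 of 66 genes with a named probe met, among 12866 genes in all. Each gene is given by its brightest detected probe, on a background-corrected, quantile-normalized log2 intensity scale.

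Hsp70 proteins bind unfolded stretches of other proteins, DnaJ proteins deliver those clients and set off the Hsp70 ATPase, and nucleotide exchange factors of the Hsp110 type reset the cycle. Small heat shock proteins hold unfolding proteins without ATP, Hsp90 matures kinases and receptors, and the Hsp60 and Hsp10 ring folds proteins imported into mitochondria. Heat shock factors switch on the inducible cytosolic members under stress, and the unfolded protein response does so for members of the endoplasmic reticulum (ER). The proximal tubule, a segment dense in mitochondria, makes up much of the kidney cortex.

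In unilateral ureteral obstruction the ureter of a single kidney is tied, and that kidney loses tubules and becomes fibrotic and inflamed, while the contralateral kidney of the same mouse keeps draining. The proximal tubule deletions were made with ggt-cre in mice with floxed Twist (Twist1) or floxed Snail (Snai1) alleles, and controls carried the same floxed alleles without cre. Both genes encode transcription factors known for epithelial-mesenchymal transition. Obstructed kidneys came from 4 Twist1-deleted mice, 3 Twist-line controls, 3 Snai1-deleted mice and 3 Snail-line controls. Contralateral kidneys came from 3 mice of each of these groups, since the contralateral kidney of Twist1-deleted mouse 5 was not analysed here. Healthy kidneys of unoperated mice came from 3 Twist1-deleted mice, 3 Snai1-deleted mice, 3 wild types with ggt-cre and 3 wild types without it. The Twist line and the wild types were on mixed C57Bl/6 and sv129 backgrounds, and the Snail line on mixed C57Bl/6 and Balb/c. Age was 26 weeks in the healthy deleted mice and 10 weeks in every other group. Deletion in tubule cells alone leaves Twist1 and Snai1 intact in the other cells of the kidney.

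Between 16977 and 20682 of 45281 probes were detected per array, and replicate arrays of a group correlated at 0.936 to 0.992. No pair of arrays held identical values. The obstructed kidney of Twist1-deleted mouse 7 stood apart from the other 3 of its group. Leaving out both kidneys of that mouse was an alternative added after seeing the data. Obstruction then called 37 members on average over the genotypes in place of 38, and 29 in Twist1-deleted mice in place of 26. The share of all genes called in that fit is not given here. Xist exceeded the Y-linked genes in 8 of 25 mice, in every healthy Twist1-deleted mouse and in 0 of 3 wild types with cre. Twist1 was near background throughout (4.44 to 5.62) and was called in no test of deletion, so its probe does not check the labels. Snai1 did not pass the test between deleted and control kidneys either, with a log2 change of -0.36 (adjusted p = 0.666, limma) in obstructed kidneys.

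The members group by place of work. Of 8 small heat shock genes with a probe, 5 were detected. Of 12 cytosolic Hsp90, Hsp70 and Hsp110 genes, 10 were detected. The other classes held 9 of 11 DnaJ A and B genes, 9 of 11 ER genes, 10 of 10 mitochondrial genes and 11 of 14 other DnaJ C genes. Detection was on all 37 arrays for 38 members. At the edge of the rule, Hspa1l was detected on 3 arrays and Hspb7 on 5, while Dnajc5b, Dnajc5g, Hspa12a and Hspb9, left out, reached at most 1 array each. Dnajb7, Dnajb8, Dnajb14, Dnajc9, Hspa13, Hspa14, Hspb3 and Hspb11 were detected on none. Hsp90ab1, Dnaja4, Dnajb11, Dnajc13 and Dnajc21 had no named probe and were not analysed here.

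The promoters of 6 members are shown with matches to heat shock and ER stress motifs, defined below. Hspe1 holds a heat shock element of 3 units. Hspb1 and Hspa1b hold only a shorter motif of 2 units, which 17.0% of all genes also have. Hspa5, Hsp90b1 and Dnajc3 hold an ER stress element. Each line holds the 250 bases before the annotated start, 5′ to 3′ on the gene's strand, from RefSeq on build GRCm38.p6, with motif matches in capitals. Hspb1 lies at chr5:135887669-135887918 on the plus strand, Hspe1 at chr1:55087898-55088147 on the plus strand and Hspa1b at chr17:34959239-34959488 on the minus strand. Among the ER members, Hspa5 lies at chr2:34771840-34772089 on the plus strand, Hsp90b1 at chr10:86705445-86705694 on the minus strand and Dnajc3 at chr14:118937682-118937931 on the plus strand.
Hspb1: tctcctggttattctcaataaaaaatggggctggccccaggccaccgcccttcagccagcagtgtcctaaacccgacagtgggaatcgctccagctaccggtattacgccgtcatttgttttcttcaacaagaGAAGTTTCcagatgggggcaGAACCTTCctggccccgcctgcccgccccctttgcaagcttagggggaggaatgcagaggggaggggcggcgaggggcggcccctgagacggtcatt
Hspe1: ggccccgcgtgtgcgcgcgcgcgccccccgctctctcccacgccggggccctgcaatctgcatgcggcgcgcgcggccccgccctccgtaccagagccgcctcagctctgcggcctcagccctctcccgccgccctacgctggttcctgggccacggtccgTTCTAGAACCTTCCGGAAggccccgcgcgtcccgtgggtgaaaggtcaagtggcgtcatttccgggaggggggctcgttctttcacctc
Hspa1b: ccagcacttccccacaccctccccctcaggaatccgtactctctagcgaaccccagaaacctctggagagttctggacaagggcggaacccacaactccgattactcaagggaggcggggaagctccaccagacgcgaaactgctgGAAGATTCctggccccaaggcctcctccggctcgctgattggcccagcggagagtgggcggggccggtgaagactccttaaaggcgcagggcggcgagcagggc
Hspa5: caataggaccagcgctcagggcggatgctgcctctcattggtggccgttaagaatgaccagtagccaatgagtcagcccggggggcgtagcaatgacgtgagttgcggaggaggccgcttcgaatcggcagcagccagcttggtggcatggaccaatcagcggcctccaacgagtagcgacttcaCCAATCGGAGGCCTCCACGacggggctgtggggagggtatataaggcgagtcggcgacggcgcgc
Hsp90b1: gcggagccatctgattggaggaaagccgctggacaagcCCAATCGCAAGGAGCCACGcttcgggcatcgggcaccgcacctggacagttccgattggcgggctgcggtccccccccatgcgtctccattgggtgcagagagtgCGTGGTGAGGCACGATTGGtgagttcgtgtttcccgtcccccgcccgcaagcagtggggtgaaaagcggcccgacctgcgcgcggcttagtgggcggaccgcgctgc
Dnajc3: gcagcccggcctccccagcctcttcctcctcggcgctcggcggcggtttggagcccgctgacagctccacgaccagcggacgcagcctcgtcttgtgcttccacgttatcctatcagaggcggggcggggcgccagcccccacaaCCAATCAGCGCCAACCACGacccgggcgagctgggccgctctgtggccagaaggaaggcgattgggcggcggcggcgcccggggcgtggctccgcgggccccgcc

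Promoter windows were found for 44 of the 54 members, 59 windows in all, each also covering 50 bases after the start. A heat shock element of 3 units, TTCNNGAANNTTC or GAANNTTCNNGAA on either strand, was present in 4 of the 44, or 9.09%, namely Dnajb6, Hspd1, Hspe1 and Hsph1. Of all 27025 genes with a window, 0.662% had it. In Hspe1 it lies up to 89 bases before the start, and Hspd1 reads the same stretch in the opposite direction, since their starts lie 216 bases apart, head to head. The ER stress element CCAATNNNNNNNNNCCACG, read on either strand as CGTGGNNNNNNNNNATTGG, was found in Dnajc3, Hspa5 and Hsp90b1, or 6.82% of the members against 0.137% of all genes. Hsp90b1 holds 2 copies, 212 and 107 bases before the start. A shorter heat shock motif of 2 units, GAANNTTC or TTCNNGAA, which overlaps the longer motif, was in 13 members (29.5%) and in 17.0% of all genes. In Hspb1 that motif occurs 117 and 97 bases before the start. The upstream 250 bases of Hspa1a and Hspa1b differ at 3 positions. Their transcripts are also near-identical, so their probes may each read both genes.

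The first comparison asks what obstruction did to the chaperones, as the mean of obstructed minus contralateral over the 4 genotypes. The small heat shock genes Hspb1 and Hspb8 rose most, the cytosolic members split, and all 10 mitochondrial members fell. By limma with Benjamini-Hochberg adjustment over all genes at 0.05, 38 of 54 members differed, against 62.2% of all genes. Of these, 14 were higher (33.6% of all genes were) and 24 were lower (28.7% of all genes were). The median log2 change was -0.09 over the members and 0.01 over all genes. Under a median scaling in place of quantile normalization the median of all genes moved to 0.18, and 71.9% of the called genes were higher in place of 53.9%. The members then counted 15 higher and 17 lower, and 27 of the 38 calls kept direction and call under all 3 scalings tried.

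**Figure D1:**
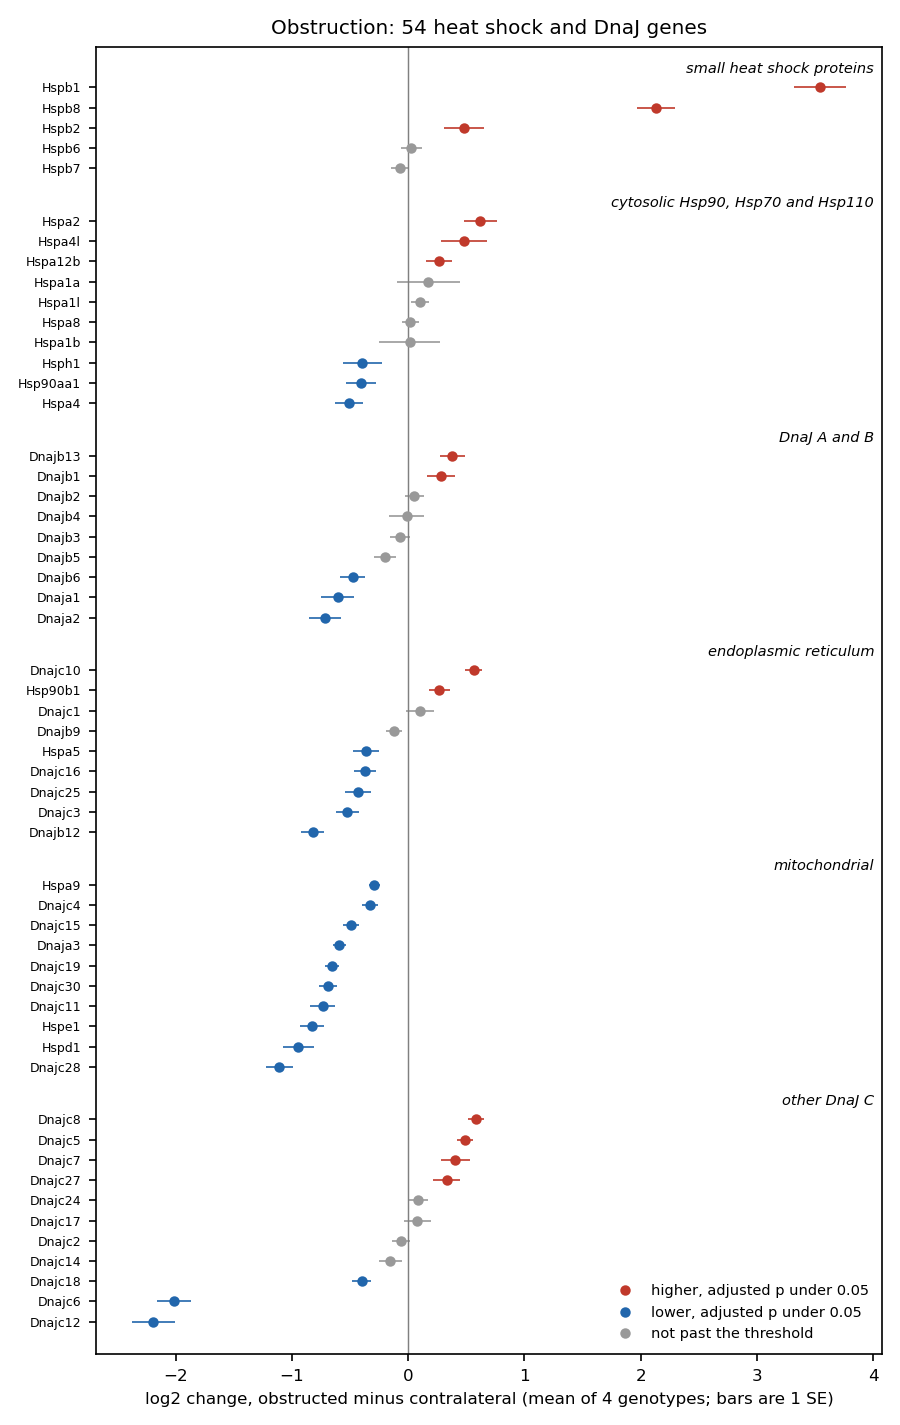
Log2 change (obstructed minus contralateral, mean of 4 genotypes, bars 1 SE) of the 54 members, 1 row per gene, grouped by role. Red and blue points passed an adjusted p of 0.05 in limma. Hspb1 (3.54) and Hspb8 (2.13) lie far to the right, Dnajc6 (-2.01) and Dnajc12 (-2.19) far to the left, and all 10 mitochondrial points lie below 0 (under median scaling 1 of these, Dnajc4, is at 0.03).

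Obstruction raised 3 of 5 small heat shock genes. Hspb1, which encodes Hsp27, a chaperone that also binds actin filaments, had a lowest, median and highest log2 intensity of 9.29, 10.89 and 11.49 in 13 obstructed kidneys, against 6.46, 7.28 and 7.71 in 12 contralateral kidneys. The ranges did not overlap, and the lowest obstructed value was that of mouse 7. The log2 change was 3.54 (SE 0.23), an 11.7-fold higher level (adjusted p = 1.08e-13, limma), and it was positive in 12 of 12 mice with both kidneys, between 1.90 and 4.64.

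Hspb8, a partner of the co-chaperone Bag3 in clearing misfolded proteins, had 9.86, 10.85 and 11.67 in obstructed kidneys, against 8.03, 8.62 and 9.38 in contralateral kidneys. These ranges did not overlap either, and its 4.39-fold rise (log2 2.13, SE 0.16) was present in 12 of 12 mice. Hspb2, known from muscle, rose by 0.48 (SE 0.17, adjusted p = 0.0157) at a low level. Hspb6 changed by 0.03 and Hspb7 by -0.07, neither past the threshold. Outside the family, Bag3 rose by 0.62 (adjusted p = 3.79e-05) and the small heat shock gene Cryab by 0.67 (adjusted p = 0.00613).

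Cytosolic Hsp70, Hsp90 and Hsp110 genes moved in both directions, with 3 of 10 higher, 3 lower and a median of 0.06. Hspa8, the constitutive Hsp70, lay at 13.40 to 14.08 in obstructed kidneys and at 13.53 to 14.14 in contralateral kidneys, with a log2 change of 0.02 (SE 0.07, adjusted p = 0.83). Under median scaling Hspa8 was at -0.21 and passed (adjusted p = 0.0071). The inducible Hsp70 gene Hspa1a ranged over 7.43 to 9.67 in obstructed and 7.31 to 9.10 in contralateral kidneys (change 0.17, SE 0.27, adjusted p = 0.591). Its copy Hspa1b changed by 0.01 (SE 0.26, adjusted p = 0.971) and was near background on many arrays. Neither inducible Hsp70 gene was shown to differ between the kidneys of an obstructed mouse, within the wide spread between mice.

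Among the members that rose were Hspa2 by 0.62 (SE 0.14, higher in 12 of 12 mice), Hspa4l by 0.48 and Hspa12b by 0.26. On its second, dimmer probe Hspa4l was at -0.03 (adjusted p = 0.856, limma). Hspa2 is best known from testis, Hspa4l is an exchange factor of the Hsp110 type and Hspa12b is an atypical, endothelial Hsp70. Hspa4, an exchange factor, fell by 0.51 (SE 0.12) and Hsp90aa1, the inducible Hsp90, by 0.41 (SE 0.13). Hsp90aa1 spanned 7.74 to 9.61 in obstructed and 8.16 to 9.65 in contralateral kidneys, overlapping widely, but was lower in 11 of 12 mice. Hsph1, the inducible Hsp110, was at -0.39 (adjusted p = 0.0439), a call that was lost in 16 of 25 fits that left out a single array. Under median scaling Hspa4 (-0.16, adjusted p = 0.308), Hsp90aa1 (-0.16, adjusted p = 0.289) and Hsph1 (adjusted p = 0.056) did not pass, and on the series matrix values Hspa4l did not (adjusted p = 0.0697).

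Among DnaJ A and B genes, which deliver clients to cytosolic Hsp70, 2 of 9 rose and 3 fell. Dnajb1, the heat-inducible Hsp40, was at 10.81 to 11.59 in obstructed and 10.67 to 11.27 in contralateral kidneys. Its log2 change of 0.28 (SE 0.12, adjusted p = 0.0397) was small but positive in 12 of 12 mice, and the call was lost in 14 of 25 fits without 1 array and under median scaling (0.25, adjusted p = 0.0745). Dnajb13, known from the motile cilium and sperm tail, rose by 0.38 near background. Dnaja2 and Dnaja1, the main DnaJ partners of Hsc70 in the cytosol, fell by 0.72 (SE 0.14) and 0.61 (SE 0.14), each in 12 of 12 mice. The Dnaja1 probe was dim, detected on 8 of 13 obstructed and 10 of 12 contralateral arrays. Dnajb6, a suppressor of protein aggregation, fell by 0.48 on its brightest probe and was at -0.57 on its second. Its dimmest probe, detected on all 37 arrays, passed in the opposite direction at 0.23 (adjusted p = 0.0144, limma).

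Members of the ER split 2 higher and 5 lower of 9. Dnajc10 (ERdj5, a disulfide reductase) had 10.28, 10.89 and 11.38 in obstructed kidneys, against 9.92, 10.21 and 11.01 in contralateral kidneys, an overlap, and rose by 0.56 (SE 0.08, 11 of 12 mice). On its second-brightest probe the change was 0.15 (adjusted p = 0.202). Hsp90b1, the ER Hsp90 known as GRP94, rose by 0.27 (SE 0.09, adjusted p = 0.00813). Dnajb12, which sorts membrane proteins for degradation, had 7.22, 7.75 and 8.29 in obstructed kidneys, against 8.12, 8.63 and 8.85 in contralateral kidneys.

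Dnajb12 fell by 0.82 (SE 0.10), in 12 of 12 mice although the ranges overlapped. Dnajc3, an inhibitor of the stress kinase PERK and a BiP co-chaperone, fell by 0.52, Dnajc25 by 0.43 and Dnajc16 by 0.37. Hspa5, which encodes BiP, the main Hsp70 of the ER, was at -0.36 (SE 0.11, adjusted p = 0.00655) on a dim probe that was detected on 29 of 37 arrays and ranged over 4.58 to 5.97 in operated mice. Of the 3 ER members with an ER stress element shown above, Hsp90b1 was higher and Dnajc3 and Hspa5 lower. Under median scaling the ER count was 1 higher and 2 lower, and Hsp90b1 (0.14, adjusted p = 0.231) and Hspa5 (-0.20, adjusted p = 0.138) no longer passed. Of 19 measured genes of the unfolded protein response outside the family, 7 rose and 4 fell. Of all genes, 33.6% were higher and 28.7% lower, so these counts do not set that list apart. Among the 7 that rose were Asns (1.68), Trib3 (1.21) and Xbp1 (0.77).

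All 10 mitochondrial members fell, with a median log2 change of -0.67. Hspd1, which encodes Hsp60, had 10.08, 10.99 and 12.06 in obstructed kidneys, against 11.65, 11.93 and 12.43 in contralateral kidneys. The highest obstructed values were those of mouse 7 (11.81) and of Snai1-deleted mice 11 (11.92) and 13 (12.06), and these made the ranges overlap. Hspd1 fell by 0.94 (SE 0.13, adjusted p = 3.59e-07), and by 1.04 without both kidneys of mouse 7. Its second probe was at -1.59.

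Hspe1, which encodes its lid Hsp10 and shares the promoter stretch printed above, had 8.29, 9.41 and 10.29 in obstructed kidneys, against 9.41, 9.97 and 10.84 in contralateral kidneys. Hspe1 fell by 0.83 (SE 0.11, adjusted p = 7.19e-08), and by 0.91 without both kidneys of mouse 7. Both genes were lower in 11 of 12 mice, with mouse 7 at 0.01 for Hspd1 and 0.03 for Hspe1. Hspa9 (mortalin, the motor that pulls proteins into the matrix) fell by 0.29 (SE 0.05, adjusted p = 7.45e-06), and by 0.78 on its second probe.

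Dnajc28 fell by 1.11 (SE 0.11) on its brightest probe and by 0.66 on its dimmer probe, and its 7.05 to 8.55 in obstructed kidneys overlapped the 8.46 to 9.15 in contralateral kidneys only slightly. Dnajc19, a subunit of the import motor, fell by 0.65 in 12 of 12 mice, and its other 2 probes were at -1.85 and -1.82. Dnajc11, linked to the cristae-organizing complex, fell by 0.74, Dnajc30 by 0.69, Dnaja3 (Tid1, partner of mortalin) by 0.59, Dnajc15 (an import regulator) by 0.49 and Dnajc4 by 0.33. Under median scaling 9 of these 10 stayed called lower, and Dnajc4 was at 0.03. Grpel1, the exchange factor of mortalin outside the family, fell by 0.93 (adjusted p = 2.99e-08). Summed linear intensity of the 10 mitochondrial members was 17076 to 29826 in obstructed kidneys and 29724 to 34971 in contralateral kidneys.

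Among the other DnaJ C genes were the deepest losses of the family. Dnajc12, a co-chaperone of aromatic amino acid hydroxylases in humans, had 7.43, 8.99 and 10.93 in obstructed kidneys, against 10.81, 11.56 and 11.76 in contralateral kidneys. It fell by 2.19 (SE 0.19), or 4.57-fold, in 12 of 12 mice. Dnajc6, which encodes auxilin, the DnaJ protein that strips clathrin from vesicles, had 6.43, 8.16 and 9.57 in obstructed kidneys, against 9.79, 10.26 and 10.63 in contralateral kidneys.

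The Dnajc6 ranges did not overlap, and it fell by 2.01 (SE 0.15), or 4.04-fold (adjusted p = 2.61e-12). Dnajc18 fell by 0.40, a call that was lost under median scaling, where it was at 0.00 (adjusted p = 0.972). Risers were Dnajc8, a splicing factor, by 0.58 (SE 0.07), Dnajc5, the vesicle-bound cysteine string protein, by 0.49 (SE 0.07), Dnajc7, which passes clients between Hsp70 and Hsp90, by 0.41, and Dnajc27, a Rab-like GTPase, by 0.33. The rise of Dnajc8 was not seen on its second, dimmer probe (-0.06), and Dnajc5 was at 0.20 on its own second probe (adjusted p = 0.0808). Dnajc27 was at 0.07 on its second probe (adjusted p = 0.508, limma). Dnajc7 was called higher in 2 of the 4 genotypes. Its changes within mice were 0.59 to 0.98 in the Twist line, 0.05 to 0.41 in Snail-line controls and -0.05 to 0.04 in Snai1-deleted mice. In the Twist line Dnajc7 lay at 8.03 to 8.69 in obstructed and 7.26 to 8.03 in contralateral kidneys. All 12 healthy kidneys lay above both, at 9.22 to 9.78.

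**Figure D2:**
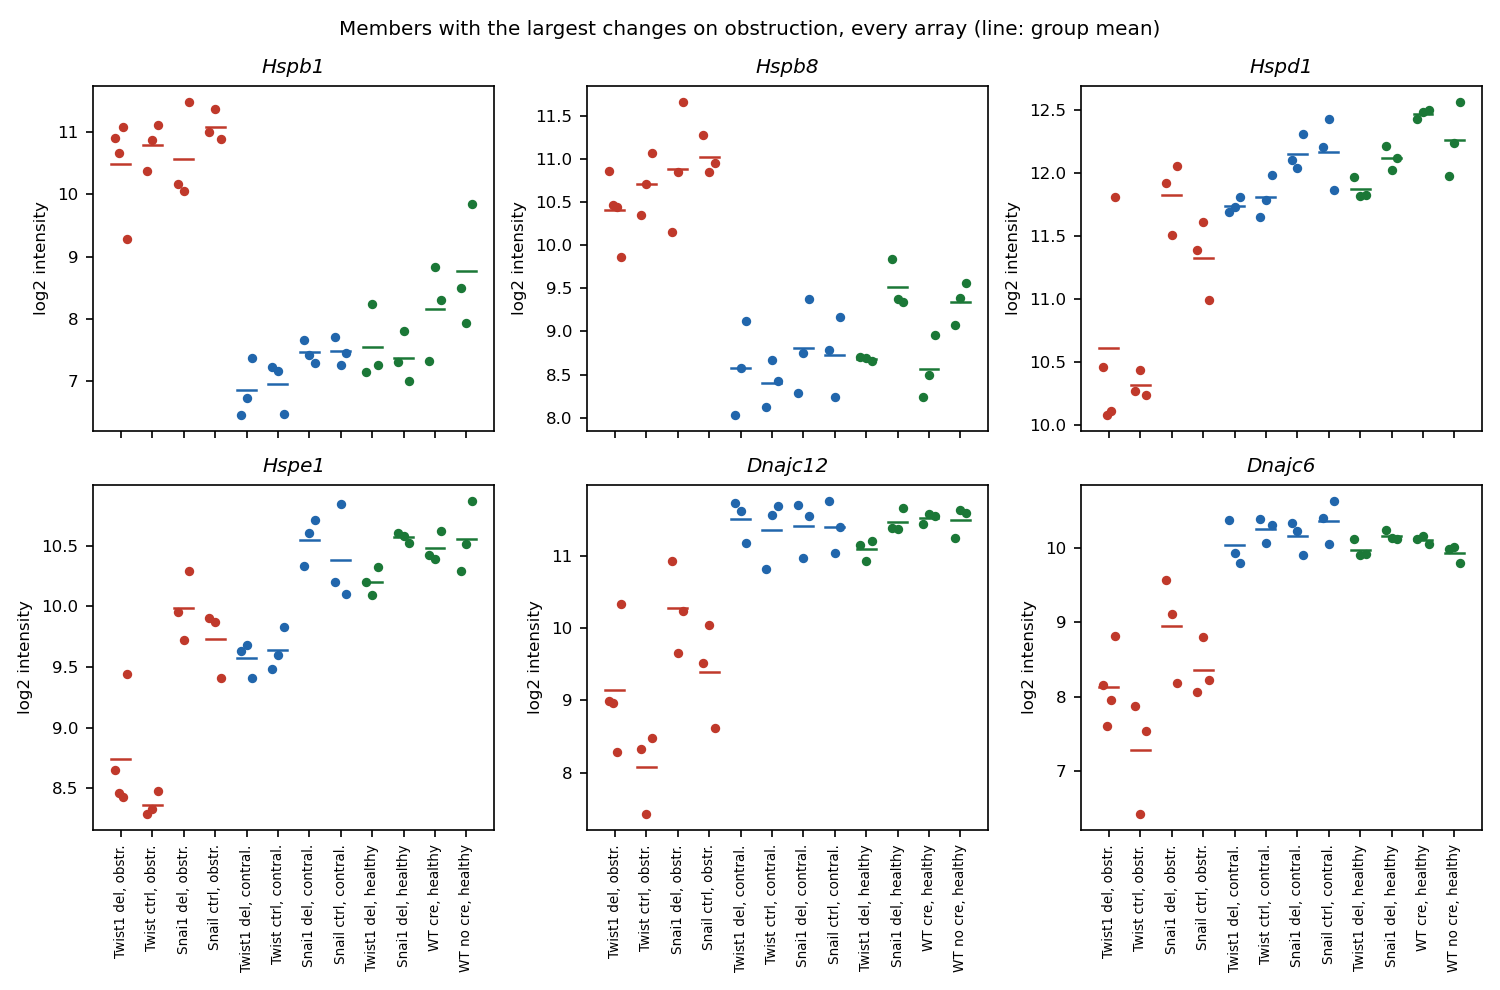
Log2 intensity of Hspb1, Hspb8, Hspd1, Hspe1, Dnajc12 and Dnajc6 on every array, with obstructed kidneys in red, contralateral in blue, healthy in green and a line at each group mean. Every obstructed point of Hspb1 and Hspb8 lies above every contralateral point, and every obstructed point of Dnajc6 below, while obstructed points reach the contralateral range for Hspd1 (mice 7, 11 and 13, at 11.81 to 12.06), for Hspe1 (several kidneys) and for Dnajc12 (mouse 11, at 10.93).

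Cell-type markers moved with these changes in the same kidneys. Proximal tubule markers fell in 10 of 10 genes (sums of 5383 to 76814 in obstructed and 76569 to 93477 in contralateral kidneys), macrophage markers rose in 10 of 10 (13873 to 36748 and 1607 to 4719) and fibroblast markers in 7 of 7 (3427 to 11838 and 694 to 2322). Smooth muscle markers rose in 4 of 5. Other tubule segments fell as well, with distal tubule markers lower in 3 of 3 (median -1.28), collecting duct markers in 5 of 6 (median -1.53) and thick limb markers in 2 of 4 (median -0.67). In whole kidney, fewer cells of a type and less RNA per cell cannot be told apart, and the part of these markers in the chaperone changes was not tested.

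By genotype, obstruction called 26 of 54 members in Twist1-deleted mice (7 higher, 19 lower), where 40% of all genes were called (21.9% higher, 18.2% lower). In Twist-line controls it called 27 (9 higher, 18 lower), against 47.1% (26.6% higher, 20.5% lower). In Snai1-deleted mice it called 7 (3 higher, 4 lower), against 15.2% (10.5% higher, 4.76% lower). In Snail-line controls it called 19 (5 higher, 14 lower), against 36.3% (21% higher, 15.3% lower). Across all genes and the family alike, the fewest calls were in Snai1-deleted mice. Their obstructed kidneys had proximal tubule marker sums of 47740 to 76814, against 5383 to 66385 in the other genotypes. Their count was 15 with mouse as a random block, 5 with it as a fixed block and 3 without the obstructed or the contralateral kidney of mouse 13. The Snail-line control count was 11 without the obstructed kidney of mouse 10. The share of all genes called in these alternative fits is not given here.

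Hspb1, Hspb8 and Dnajc8 were called higher, and Dnajc6, Dnajc12, Dnajc19 and Dnajc28 lower, in each of the 4 genotypes. That is 3 and 4 of 54 members, beside 1207 and 491 of 12866 genes. The log2 change of Hspb1 was 3.62 in Twist1-deleted mice, 3.83 in Twist-line controls, 3.12 in Snai1-deleted mice and 3.61 in Snail-line controls. For Dnajc12 the same changes were -2.36, -3.27, -1.14 and -2.0 in that order of genotypes, and for Dnajc6 they were -1.90, -2.97, -1.19 and -2.0. Over the 4 genotypes, 13 members were above 0 in all, 25 below 0 in all and 16 mixed, beside 4540, 4079 and 4247 of all 12866 genes. Whether the size of obstruction's effect differed between deleted and control mice was tested as an interaction.

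The second comparison asks whether deleting Twist1 or Snai1 in the proximal tubule altered the chaperones of operated mice, and limma called 0 members in each test. In obstructed kidneys, Twist1 deletion called 0 members, against 0.0311% of all genes, with 5 members at an unadjusted p under 0.05. Snai1 deletion in obstructed kidneys called 0, against 0% of all genes, with 4 members at an unadjusted p under 0.05. With arrays weighted by quality, 3 members were called. The share of all genes in that fit is not given here, so this count does not set the chaperones apart. In contralateral kidneys, Twist1 deletion called 0, against 0.00777%, with 3 unadjusted, and Snai1 deletion called 0, against 0%, with 0 unadjusted. The interaction of obstruction with Twist1 deletion called 0, against 0%, with 5 unadjusted, and that with Snai1 deletion called 0, against 0%, with 1 unadjusted. The difference in obstruction's effect between the control mice of the Twist and Snail lines called 0, against 0.0389%, with 9 unadjusted. Among all 12866 genes, 1475, 1421, 663, 328, 757, 408 and 1259 reached an unadjusted p under 0.05 in these tests, in order. The other alternatives also gave 0 in each of these tests.

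The smallest adjusted p among members for Twist1 deletion in obstructed kidneys was that of Dnajb4, with 5.39, 5.39, 5.88 and 6.34 in deleted kidneys, against 4.76, 4.59 and 5.30 in controls, where it was detected on 1 of 3 arrays. These values did not overlap, and the difference was 0.87 (adjusted p = 0.264), or 0.67 (adjusted p = 0.635) without both kidneys of mouse 7. Dnajc12 had 8.29, 8.96, 8.99 and 10.33 in Twist1-deleted obstructed kidneys, against 7.43, 8.33 and 8.48 in their controls. The difference was 1.06 (adjusted p = 0.277), with overlapping values, and 0.67 (adjusted p = 0.822) without both kidneys of mouse 7, the highest of the Twist1-deleted values. In Snai1-deleted obstructed kidneys Dnajc12 had 9.66, 10.23 and 10.93, against 8.62, 9.52 and 10.04 in their controls, a difference of 0.88 (adjusted p = 0.39). Dnajc6 differed by 0.86 (adjusted p = 0.271) between Twist1-deleted and control obstructed kidneys, and by 0.63 without mouse 7. Dnaja3 had 11.39, 11.41 and 11.42 in Snai1-deleted obstructed kidneys, against 10.87, 10.93 and 11.25 in their controls, values that did not overlap (difference 0.39, adjusted p = 0.273). None of these passed the threshold, which does not show that the groups were alike.

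In healthy mice, where deletion goes together with an age of 26 against 10 weeks, Twist1 deletion called 3 of 54 members against 3.39% of all genes, each of them lower. Dnajb1 had 10.95, 10.93 and 10.66 in Twist1-deleted healthy kidneys, against 11.42, 12.14 and 11.68 in wild types with cre (change -0.90, SE 0.24, adjusted p = 0.0377). Hsp90aa1 had 8.71, 8.83 and 8.72, against 9.49, 9.92 and 9.61 (change -0.92, SE 0.26, adjusted p = 0.0451). Dnajc2, a ribosome-bound partner of Hsp70, had 9.29, 9.39 and 9.30, against 9.88, 9.86 and 10.08 (change -0.61, SE 0.16, adjusted p = 0.0351).

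None of the 3 overlapped between the groups, but they were picked by the test on these same arrays, so the lack of overlap adds no support. The second probes of Hsp90aa1 (-0.76, adjusted p = 0.146) and Dnajc2 (-0.73, adjusted p = 0.0688) did not pass in limma. Without wild type mouse 14 the count was 1, and without mouse 15, 16, 20, 21 or 22 it was 0. With the Xist difference as a term it was 0, with array weights 14, with only these groups in the fit 10 and on the series matrix values 1. The share of all genes called in these fits is not given here, so these counts do not set the chaperones apart. Age, sex as read from Xist and deletion cannot be told apart here.

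Snai1 deletion in healthy kidneys called 1 member, against 0.871% of all genes, and background strain and age go together with the deletion. Hspa1a had 7.43, 7.32 and 7.30 in Snai1-deleted healthy kidneys, against 8.49, 10.88 and 9.62 in wild types with cre. The groups did not overlap, the wild types spanned a wide range, and the change was -2.31 (SE 0.54, adjusted p = 0.0326), a 4.96-fold lower level. The dimmer probes of Hspa1a did not pass in limma, at -1.32 (adjusted p = 0.197) and -1.23 (adjusted p = 0.433). The call was lost without mouse 15, 16, 23, 24 or 25, when the count was 0, and also without background correction. With array weights 7 members were called, again without the share of all genes in that fit. Cre itself, in wild types with and without it, called 0 members in limma, against 0.0155% of all genes, and 0 in every alternative. An unadjusted p under 0.05 was reached by 3 members and by 306 of all 12866 genes.

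**Figure D3:**
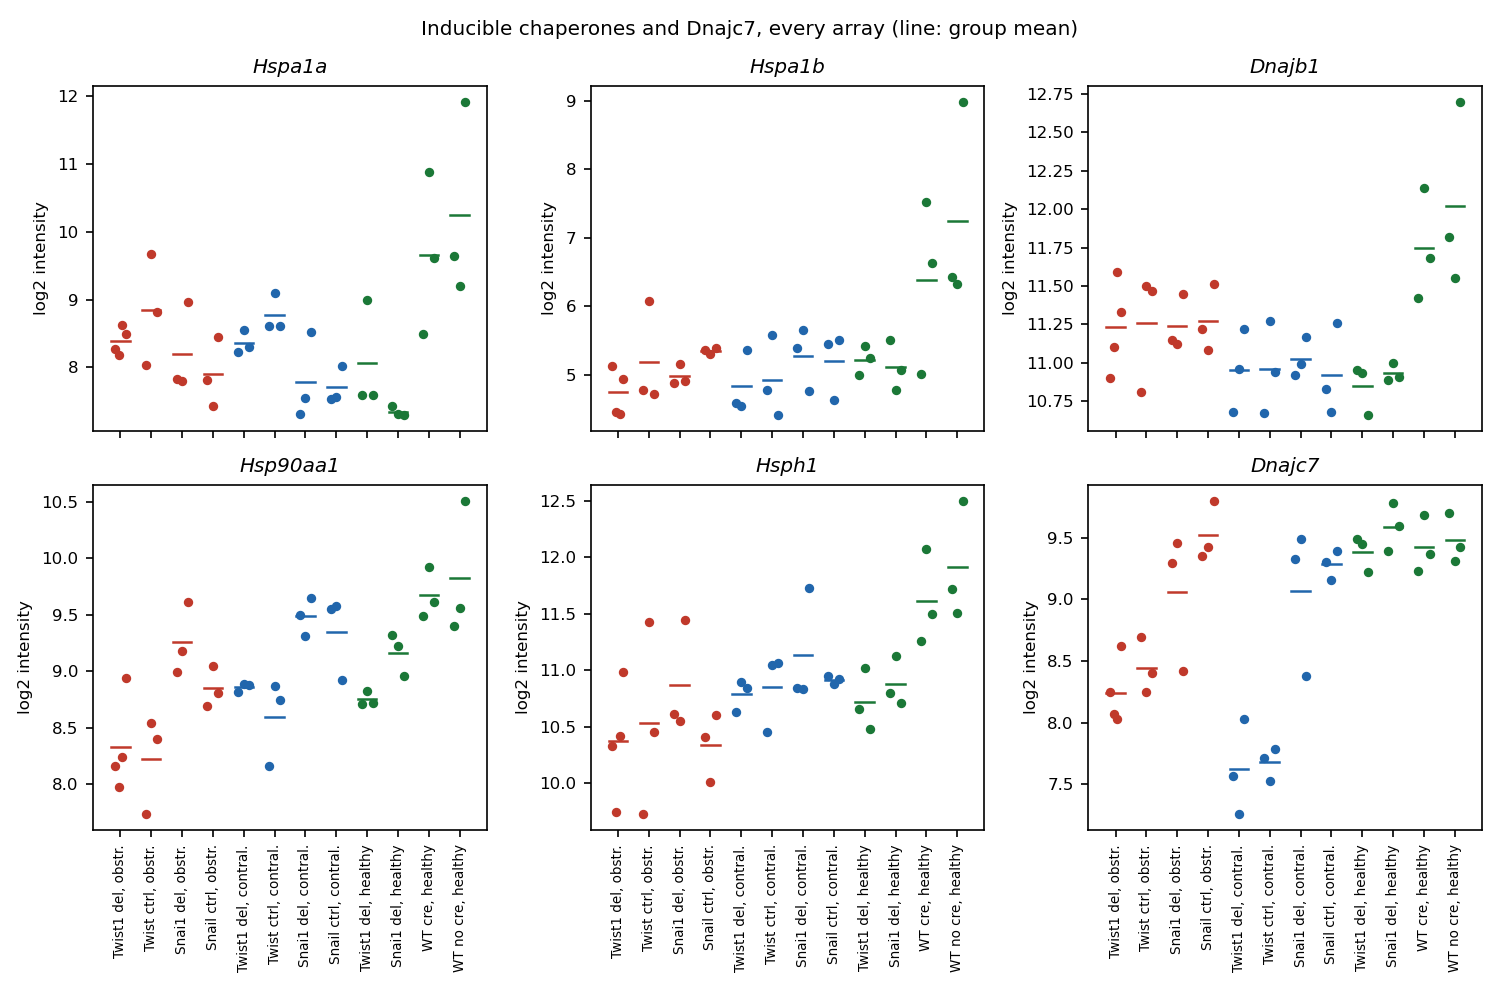
Log2 intensity of Hspa1a, Hspa1b, Dnajb1, Hsp90aa1, Hsph1 and Dnajc7 on every array, with obstructed kidneys in red, contralateral in blue, healthy in green and a line at each group mean. The wild type healthy kidneys at the right hold the highest values of the first 5 genes (Hspa1a up to 11.92), and Dnajc7 is lowest in Twist-line contralateral kidneys (7.26 to 8.03).

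The third comparison set the contralateral kidneys of Twist-line controls against healthy kidneys of wild types without cre, of the same age and background. Several heat-inducible chaperones were lower in the contralateral kidneys. Limma called 24 of 54 members, against 17.7% of all genes, with 5 higher (8.58% of all genes) and 19 lower (9.15% of all genes). The median log2 change was -0.34 over the members and 0.00 over all genes. Median scaling moved the median of all genes to -0.20, and 12.6% of the called genes were higher in place of 48.4%. The members then counted 1 higher and 30 lower, with 20 of the 24 calls kept. This comparison shares its contralateral arrays with the obstruction comparison of Twist-line controls.

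A list of heat-inducible genes had 12 measured members, among them the mitochondrial Hspd1 and Hspe1 and the constitutive Hspa8. Of these 12, 8 were lower and 0 higher, with a median of -1.06. The 8 were Hspa1b, Hspb1, Hspb8, Hsp90aa1, Hsph1, Dnaja1, Dnajb1 and Hspe1. Hspa1b had 4.77, 5.58 and 4.41 in contralateral kidneys, where it was detected on 1 of 3 arrays, against 6.42, 6.32 and 8.99 in healthy kidneys, without overlap (change -2.32, SE 0.53, adjusted p = 0.00387). Hspa1a, with 8.61, 9.10 and 8.61, against 9.64, 9.20 and 11.92, was at -1.48 (adjusted p = 0.0581) on its brightest probe. Its other 2 probes passed, at -2.0 and -1.57. Hspb1 had 7.23, 7.16 and 6.48, against 8.50, 7.94 and 9.85 (change -1.81, SE 0.46, adjusted p = 0.00755).

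The higher healthy values were largely those of mouse 19, in which Hspa1a, Hspa1b, Hspb1, Dnajb1 and Hsph1 were each the highest of all healthy kidneys, followed by mouse 15 of the wild types with cre. Without mouse 19, 16 members were called. Leaving out any single array of this comparison gave 15 to 20, the fewest without contralateral mouse 1. The share of all genes called in these fits is not given here, so these counts do not set the chaperones apart. Without mouse 19 Hspa1b was at -1.45 (adjusted p = 0.0471), Hspb1 at -1.26 (adjusted p = 0.0758), Hsph1 at -0.76 (adjusted p = 0.187) and Hspb8 at -0.83 (adjusted p = 0.144). Dnaja1, Hspa5, Hspb6, Dnajc15 and Dnajc27 lost their calls as well. Dnajb1 was at -1.06 (SE 0.24, adjusted p = 0.00389), Hsp90aa1 at -1.23 (SE 0.26), Hsph1 at -1.05 (SE 0.34) and Hspa4 at -1.01 (SE 0.25). Dnajb4, an Hsp40 of the Dnajb1 type, was at -1.48 and Dnaja1 at -1.12. On its second, dimmer probe Dnajb4 was at 0.28 (adjusted p = 0.324, limma). In these contralateral kidneys Dnajb4 was detected on 2 of 3 arrays and Dnaja1 on 1 of 3.

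Dnajc7 changed with the smallest adjusted p, with 7.71, 7.53 and 7.79 in contralateral kidneys, against 9.70, 9.31 and 9.42 in healthy kidneys. Its change was -1.80 (SE 0.25, adjusted p = 5.49e-05) without overlap. Dnajc24, which serves diphthamide synthesis, had 7.62, 7.40 and 7.37, against 8.52, 8.80 and 8.49 (change -1.14, SE 0.17, adjusted p = 0.000152). Hspb8 was at -0.94, Hspe1 at -0.92, Dnajb2 at -0.72, Hspa5 at -0.67 and Dnajb9 at -0.65.

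Dnajc4, Dnajc18, Hspb6 and Dnajc8 completed the lower calls at -0.64 to -0.47. Higher in contralateral kidneys were Dnajb3 (0.62, detected on 3 of 3 contralateral and 1 of 3 healthy arrays), Dnajc5 (0.53) and Dnajc15 (0.41). Dnajc1, an ER DnaJ protein, and Dnajc27 were not well above background in healthy kidneys, and were at least 1.28-fold (adjusted p = 0.0125) and at least 1.36-fold (adjusted p = 0.0326) higher in contralateral kidneys. On its second probe Dnajc27 was at -0.38 (adjusted p = 0.135, limma). Hspa8 was at -0.29 (adjusted p = 0.176) on its brightest probe, while its other 2 probes passed at -1.62 and -1.12.

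Outside the family, 13 of 37 measured co-chaperone genes were lower and 1 higher, among them Ahsa1, which stimulates the Hsp90 ATPase (-1.62), St13, which binds Hsp70 (-1.56), and Chordc1, which binds Hsp90 (-0.74). Of 3 heat shock factor genes 1 was lower, Hsf2 at -1.58 (adjusted p = 0.00025). Chaperonin and prefoldin genes were lower in 6 of 13. Proximal tubule markers were lower in 1 of 10 and macrophage markers differed in 0 of 10. Immediate early genes were higher in 2 of 11 (median 0.67), collecting duct markers in 1 of 6 (median 0.76) and smooth muscle markers in 1 of 5 (median 0.22). Distal tubule markers had a median of 0.79 with 0 of 3 past the threshold. The raw 25th percentile of intensity was 86.3 to 110.1 over contralateral arrays and 107.6 to 121.4 over healthy arrays, and the part of this and of the marker lists in these differences was not tested.

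The same comparison with Snail-line contralateral kidneys, added after seeing the data, called 2 members against 0.443% of all genes. These were Hspa1a at -2.54 (adjusted p = 0.0217) and Dnajb1 at -1.10 (adjusted p = 0.0275), and Hspa1b was at -2.04 without passing. Both lines are set against the same 3 healthy kidneys, mouse 19 among them, and here the background strain differs as well. Set directly against each other, the contralateral kidneys of the Twist-line and Snail-line controls differed in 8 members, against 13.3% of all genes, a share of 14.8%. Dnajb3, Dnajc15 and Dnajc5 were higher in the Twist line, and Dnajc7, Dnajc24, Hspe1, Dnajc18 and Dnajc8 lower.

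Dnajc7 differed most, at -1.61 (adjusted p = 0.000292). It lay at 7.26 to 8.03 in the 6 contralateral kidneys of the Twist line, against 8.38 to 9.49 in the 6 of the Snail line, and at 9.22 to 9.78 in all 12 healthy kidneys. In the healthy Twist1-deleted mice, aged 26 weeks, it was 9.49, 9.45 and 9.22. Whether these arrays were run together is not given in the sources used here.

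**Figure D4:**
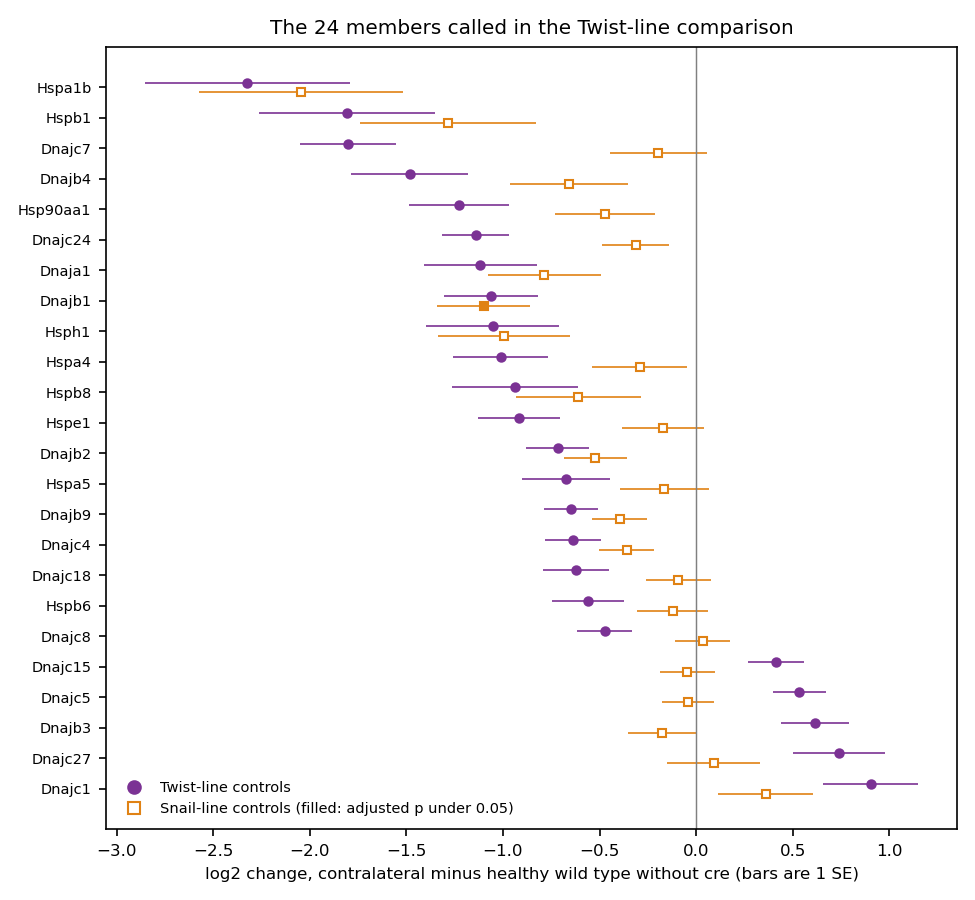
Log2 change (contralateral minus healthy wild type without cre, bars 1 SE) of the 24 members called for Twist-line controls (circles), with the same change for Snail-line controls (squares, filled where adjusted p was under 0.05). Both lines share the same 3 healthy kidneys. Hspa1b is at -2.32 for the Twist line and -2.04 for the Snail line, and Dnajc7 at -1.80 for the Twist line and -0.20 for the Snail line.

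The summed linear intensity of the heat-inducible list, of which Hspa8 makes up 42% to 64.9% per array, was 20602 to 26204 in Twist-line control and 22709 to 25262 in Snail-line control contralateral kidneys, against 30062 to 48506 in healthy wild types without cre. In Snai1-deleted mice 11 and 12 it was 24835 and 24703 in obstructed and 23036 and 24976 in contralateral kidneys, while mouse 13 alone, at 36024 and 32684, reached the wild type range. In healthy deleted mice it was 21117 to 23132 for Twist1 and 22562 to 26274 for Snai1, against 28167 to 38457 in wild types with cre. The genes most like the standardised mean of these 12 members over 37 arrays were Chordc1 (Pearson r of 0.828), Prdx1 (0.775), Bmp2k (0.733), Ubxn10 (0.73) and Cacul1 (0.728), as a description over arrays that share mice and normalization. Within the list, Dnajb1 and Hsph1 followed the mean most closely (0.873 and 0.872), while Hspb8 (0.06) and Hspb1 (0.158) did not follow it.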

How the data were processed

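Total RNA from whole mouse kidneys was labelled and hybridised to Illumina bead arrays, 37 arrays from 25 mice in 12 groups. The deposited intensity values are non-normalized average signals per probe with a detection p-value each, per the file headers, and GenomeStudio 5.0 is named in the submitters' processing notes. The authors' series matrix values were linear in the average signal on every array (r of 1, scale 0.725 to 1.199, column medians 6.4 to 16.1), with their scaling and centring unstated. They were used as an alternative after a floor of 1.

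Deposited intensities were background-corrected with the detection p-values, quantile-normalized and put on the log2 scale with neqc of limma 3.58.1 (R 4.3.3, offset 16). Of 45281 probes, 34885 had 1 gene symbol in the platform annotation, 18 several and 10378 none. Probes with a detection p under 0.05 on at least 3 arrays were kept (20612), and the probe with the highest mean stood for its gene (12866 genes). No column went unmatched to a sample (0).

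One fit held 12 group means over all 37 arrays and gave 16 comparisons, with Benjamini-Hochberg adjustment over all genes at 0.05. The fit was tested on simulated data. Kidneys of the same mouse carried the same mouse number in the labels. Their deviations from the group means correlated at 0.171 to 0.63 in 12 of 12 pairs (consensus 0.233). Kidneys of different mice were not compared in this way, so these values alone do not establish the pairing. The mouse entered as a block in an alternative. The labels name mice as replicates. The files name no slide or batch.

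The members and lists were chosen with earlier results of these data known. Members to be named with values were the 6 largest rises and falls under obstruction and 14 fixed chaperones, 13 of which were measured. Also chosen were members called in the deletion, cre or contralateral comparisons (up to 6 each). Some of these are given above only as ranges, such as Dnajc28. Others are given only as changes, such as Dnajc8, Dnajc5, Hspa2, Dnajb9 and Dnajc4. Other members were named by their changes. Alternatives were 3 scalings, 2 detection filters, the mouse block, array weights, separate fits, an Xist term, a second probe and leaving out each array. The number of arrays limits precision.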

Additional observations from a re-analysis of the deposited data

Results flagged for a closer look

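In the obstructed kidneys of the 4 Twist1-deleted mice, a single kidney lay far from the other 3 for 2 of the 28 members named with values. Dnajc10 was at a log2 intensity of 11.38 in mouse 6, against 10.87 to 10.93 in the others. Hspa5 was at 5.04 in mouse 7, against 4.86 to 4.88, on a probe near background. Over all 54 members, 6 had such a gap and mouse 7 was the outlying kidney in 4 of them. Chance gives such a gap in about 1 in 20 groups.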

How the results depend on the processing

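The count of members called under obstruction on average was 32 to 39 over 12 alternative settings and 34 to 38 when single arrays were left out. Counts of members that moved by over 1.5 times were the following, given without the share of all genes called in the same fits. These counts alone do not tell a shift in the chaperones from a shift in all genes. Obstruction in Twist1-deleted mice gave 12 with only its own groups in the fit. Obstruction in Snai1-deleted mice gave 15 with the mouse as a random block, 3 with only its own groups, 11 with the Xist term, and 3 to 10 without single arrays; the mouse block changed no other count by this much. In Snail-line controls it gave 11 to 22 without single arrays. Snai1 deletion in obstructed kidneys gave 3 with array weights. Twist1 deletion in healthy kidneys gave 1 on series matrix values, 14 with array weights, 10 with its own groups, 0 with the Xist term, 11 against the mean of both wild type groups and 0 to 1 without single arrays. Snai1 deletion in healthy kidneys gave 0 without background correction, 7 with array weights, 0 with its own groups, 4 against the mean of both wild types and 0 to 1 without single arrays. Contralateral against healthy gave 13 with its own groups, 2 for the Snail line and 15 to 20 without single arrays. The comparisons with the mean of both wild types, with the Snail line and without mouse 7 were chosen after seeing the data, and the causes of these shifts were not tested.

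Among the members named with values, signs turned for these log2 changes under obstruction: Dnajc8 on its second probe (-0.056), and Dnajc2 (0.11), Dnajb4 (0.249), Dnajb9 (0.048), Dnajc4 (0.029) and Hspa8 (-0.209) under median scaling. Dnajc18 (0.004), Dnajc14 (0.072) and Dnajb3 (0.052), outside that set, turned as well under median scaling. Dnajb4 was also at 0.017 with the mouse as a fixed block, 0.059 without both kidneys of mouse 7, and -0.088 to 0.108 without single arrays. Hspa8 was at -0.275 on its second probe and at -0.013 to 0.061 without single arrays. Hspa1b was at -0.053 with array weights and at -0.099 to 0.095 without single arrays. Contralateral against healthy, Dnajc15 was at -0.082 under median scaling and -0.045 for the Snail line, where Dnajb3 was at -0.175, Dnajc5 at -0.042 and Dnajc8 at 0.033.

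A slide block was not run, since the files name no slides. The fixed mouse block could not be estimated for comparisons between mice. Signal near background limits Hspa1b, Hspa5, Dnaja1 and the 13 other members that were not detected on every array.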

Other observations

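Among genes that act beside the chaperones, obstruction was accompanied by higher levels of 4 and lower levels of 3 of 13 measured chaperonin and prefoldin genes, among them Cct4 (0.45) and Cct3 (0.40) higher and Vbp1 (-0.34) lower. Of 37 co-chaperone genes 6 rose and 11 fell. Of all genes, 33.6% were higher and 28.7% lower. Of 11 immediate early genes 8 were higher, with a median log2 change of 1.69 over the list, against 0.01 over all genes. No heat shock factor gene of 3 measured passed the threshold in limma.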
